A study of Mus musculus with 7 samples.

Results

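Cd244, Igfbp6, Prr5l and Fgl2 were followed in mouse neutrophils from healthy bone marrow, spleen and blood and from inflamed tissue. They are 4 of the 28719 gene symbols that the count tables list, and they were chosen by their measured levels in these same healthy libraries, as genes with few counts in bone marrow. The difference between bone marrow and the periphery is therefore given as a description with no test. Spleen against blood was tested, because the choice did not use it, and the inflamed conditions, with 1 pool each, are described beside blood.

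Healthy tissue was represented by 6 libraries, 1 each of bone marrow, spleen and peripheral blood in each of 2 runs. All mice were untreated male C57BL/6J without an engineered allele, aged 6 weeks in run 1 and 8 weeks in run 2, so that age and run cannot be told apart. By the study's methods 3 mice were pooled for each library, and within a run the same animals gave all tissues. The inflammation experiment was 1 library of 5 conditions told apart by hashtag antibodies against CD45 and MHC class I, with 1 pool of male C57BL/6J mice per condition and hence no replicates. The conditions were blood of untreated healthy mice, blood and joint lavage of arthritic mice, lung lavage and peritoneal lavage. This library is recorded at 8 weeks of age with 3 mice pooled per condition. The study's methods give no separate age for its healthy mice. Arthritis was induced with 150 µl of K/BxN serum, which carries arthritogenic antibodies, given intraperitoneally to wild-type mice of 8 weeks on days 0 and 2, and these mice were examined on day 7. Lung and peritoneal cells came from mice of 8 weeks that had received 25 ng of recombinant IL-1β, a cytokine that draws neutrophils into tissue, by the nose or into the peritoneum 3 h earlier. In all samples, cells had been sorted as CD11b+ Ly6G+ and propidium iodide negative.

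Healthy cells were taken as neutrophils when S100a8 and S100a9, which encode the subunits of calprotectin, made up at least 3% of their unique molecular identifiers (UMIs, 1 per captured transcript) and Nkg7, a gene of cytotoxic lymphocytes, had none. This kept 12614 of 16907 healthy cells. In the inflammation library, 4852 cells, nearly all, carried an ImmGen granulocyte name in the authors' table of cells. The neutrophils of a sample summed to between 942688 and 10293966 UMIs. The median per neutrophil ranged from 774 to 2602 in the healthy libraries and from 2527 to 3681 in the 5 conditions. Levels are given as UMIs per 1000000 UMIs of the summed cells (CPM). All 10 neutrophil markers were detected in each of the 11 samples, NK cell markers summed to between 0 and 26.2 CPM, and 0 to 36 cell barcodes were shared by any pair of the 7 libraries. Spleen run 2 stood apart in that 1989 of its 4353 cells met the definition, with B cell markers at 434.5 CPM and T cell markers at 150.4 CPM in those kept, and blood run 2 in that red cell markers reached 30387 CPM. Markers of monocytes and macrophages summed to between 267 and 1349 CPM and were highest in bone marrow run 1 and spleen run 1.

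The 4 genes act in different systems. Cd244 encodes 2B4, a receptor of the SLAM family best known on NK cells, which binds CD48 on other haematopoietic cells and signals through the SAP and EAT-2 adaptors. Igfbp6 encodes a secreted protein that binds insulin-like growth factors, with a preference for IGF-II. Prr5l encodes a partner of mTOR complex 2, the kinase complex that phosphorylates AKT, SGK1 and conventional protein kinase C. Fgl2 encodes fibrinogen-like protein 2, which is known both as a membrane-bound prothrombinase of macrophages and endothelium and as a secreted ligand of the inhibitory receptor FcγRIIB. Neutrophils mature in bone marrow, where they fill their granules in order, and granule transcripts have largely gone by the time the cells circulate.

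In the GENCODE annotation of GRCm38 (mm10), Cd244, there named Cd244a, lies on the plus strand of chromosome 1 (171559193 to 171609746), Igfbp6 on the plus strand of chromosome 15 (102144362 to 102149511), Prr5l on the minus strand of chromosome 2 (101714285 to 101883027) and Fgl2 on the plus strand of chromosome 5 (21372642 to 21378374). Ccdc146 runs antisense across an exon of Fgl2 and was listed at 0.797 to 27.6 CPM in the 10 samples that list it, where Fgl2 lay between 42.7 and 1415 CPM. Gm13905, antisense to an exon of Prr5l, had 0 UMIs in all 8 samples that list it. Ly9 overlaps Cd244 on the other strand without touching an exon.

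The genes lie on 4 chromosomes, and their shared low level in marrow is what they were chosen for. The bases before their starts are shown as a description. Each run gives the 250 bases before a RefSeq start in GRCm38.p6, read in the direction of the gene, and Prr5l is shown with the outermost of its 3 starts. Capitals mark matches on either strand to 7 short motifs, namely AP-1 (TGANTCA), C/EBP (TTGCNNAA), PU.1 (GAGGAA), RUNX (TGTGGT), NF-kB (GGGNNTTCC), KLF (CCNCACCC) and the TATA box (TATAAA). The windows are chr1:171558943-171559192 (plus strand), chr15:102143936-102144185 (plus), chr2:101883028-101883277 (minus) and chr5:21372423-21372672 (plus).
Cd244: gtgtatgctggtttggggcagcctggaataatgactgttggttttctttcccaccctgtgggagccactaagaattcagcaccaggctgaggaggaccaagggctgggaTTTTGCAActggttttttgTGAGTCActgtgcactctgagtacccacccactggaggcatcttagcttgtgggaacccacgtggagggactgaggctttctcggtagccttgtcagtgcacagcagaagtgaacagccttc
Igfbp6: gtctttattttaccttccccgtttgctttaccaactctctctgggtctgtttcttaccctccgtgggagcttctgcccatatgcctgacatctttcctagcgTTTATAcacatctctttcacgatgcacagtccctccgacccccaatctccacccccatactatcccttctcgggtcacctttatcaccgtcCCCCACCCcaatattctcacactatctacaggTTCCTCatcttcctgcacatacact
Prr5l: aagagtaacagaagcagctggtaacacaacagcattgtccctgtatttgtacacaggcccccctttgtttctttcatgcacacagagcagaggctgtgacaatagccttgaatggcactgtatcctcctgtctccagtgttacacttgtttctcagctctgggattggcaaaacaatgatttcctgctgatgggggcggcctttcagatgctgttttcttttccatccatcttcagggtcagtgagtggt
Fgl2: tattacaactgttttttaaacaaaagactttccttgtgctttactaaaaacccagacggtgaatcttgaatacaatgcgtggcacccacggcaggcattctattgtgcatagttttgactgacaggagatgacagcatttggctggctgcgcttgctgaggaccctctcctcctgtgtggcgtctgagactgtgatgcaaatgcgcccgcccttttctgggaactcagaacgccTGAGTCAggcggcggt

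AP-1 matches stood before the RefSeq starts of Cd244 (positions -122 to -116, with 0 at the start base) and Fgl2 (-16 to -10), each as TGAGTCA. The RefSeq start of Fgl2 lies within the GENCODE gene, which begins at 21372642, so this match falls after the GENCODE start. The RefSeq start of Igfbp6 lies upstream of its GENCODE start at 102144362. The AP-1 motif occurs in 7.79% of 32544 promoter windows that reach from 250 bases before to 50 bases after a start. Cd244 also had a C/EBP match (-141 to -134, motif in 10.8% of promoters) and, beyond the bases shown, a PU.1 match (4 to 9, 28.1%). Igfbp6 had a PU.1 match (-25 to -20), a KLF match (-57 to -50, 16.7%) and a reversed TATA box (-148 to -143, 13.6%). The outermost Prr5l window held none of the 7 motifs, whereas its other starts held a reversed TATA box (-246 to -241), or a RUNX (-65 to -60, 16.7%) and an NF-kB match (-141 to -133, 5.85%). No motif was found in all 4 genes. In the 300-base windows CpG counts ranged from 2 before Cd244 to 12 before Fgl2, against a median of 7 over all promoters. These matches are descriptions of letters and not of binding.

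In healthy libraries the 4 transcripts were lowest in bone marrow. As a point ratio of CPM, each was at least 12.0-fold higher in blood of the same run, and the ratios per cell given below were smaller. Cd244 had 1 UMI in 1164 bone marrow neutrophils of run 1 (0.262 CPM) and 36 UMIs in 3383 cells of run 2 (4.10 CPM), against 89.1 and 127 CPM in blood and 24.8 and 128 CPM in spleen. Its ratio of blood to bone marrow was 340 in run 1, with an exact 95% counting interval of 59.9 to 13546 that reflects the single UMI, and 31.0 (22.0 to 44.8) in run 2. Intervals on ratios and levels cover counting error only.

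Igfbp6 was not listed in bone marrow of run 1, where the deposited table holds only genes with at least 11 UMIs, so that at most 10 UMIs, or 2.62 CPM, can have been present. It stood at 5.24 CPM in bone marrow of run 2, at 31.4 and 155 CPM in blood and at 12.97 and 118 CPM in spleen. Blood was at least 12.0-fold above bone marrow in run 1 and 29.6-fold (21.9 to 41.0) in run 2. Blood of run 2 lay far above blood of run 1 for Igfbp6. Counting intervals of the blood runs were apart for Cd244 (73.8 to 106.6 against 115.4 to 139.4 CPM) and Fgl2 (545.1 to 628 against 871.7 to 935.2 CPM) as well, and they met for Prr5l. By the study's methods both healthy runs used the same chemistry (v2) and different Cell Ranger versions. The labels list several 10x kit versions without assigning them to libraries, so a difference in kit or software between the runs cannot be told apart from the run.

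Prr5l was at 4.45 and 6.03 CPM in bone marrow, 101 and 131 CPM in blood and 32.8 and 124 CPM in spleen. The runs gave much the same ratio of blood to bone marrow, 22.7 (13.7 to 40.1) and 21.8 (16.3 to 29.5). Fgl2 was at 27.0 and 42.7 CPM in bone marrow, 585 and 903 CPM in blood and 222 and 687 CPM in spleen, with ratios of 21.7 (17.7 to 26.9) and 21.2 (19 to 23.6). For all 4 genes the bone marrow values lay below every blood and spleen value. Over all 6553 genes tested with edgeR, 15.0% were called higher and 14.6% lower in blood than in bone marrow, and 4.07% higher and 0.595% lower in spleen than in bone marrow, at a false discovery rate (FDR) of 0.05. The choice of the 4 genes rests on these contrasts, so nothing is read from their place in them.

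Bone marrow neutrophils held more UMIs per cell than blood neutrophils, with medians of 2602 and 2124 against 804 and 826. Counted per 1000 cells and not per UMI, Fgl2 went from 88.5 and 110.8 UMIs in bone marrow to 608 and 856 in blood, a ratio of 6.87 and 7.72. Ratios per cell were 7.18 and 7.94 for Prr5l, 10.8 for Igfbp6 in run 2, and 11.3 for Cd244 in run 2. The size of the ratio thus depends on the scale. Without any cell that held a UMI of another cell type's markers, the ratio of CPM in blood to bone marrow was 32.15 and 11.9 for Cd244, 8.84 and 7.07 for Prr5l, 6.925 and 8.01 for Fgl2, and 11.3 for Igfbp6 in run 2. Only 144 of 1164 and 711 of 3383 bone marrow neutrophils remained under that rule, and since the genes were chosen as low in these libraries, nothing is read from the direction.

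**Figure D1:**
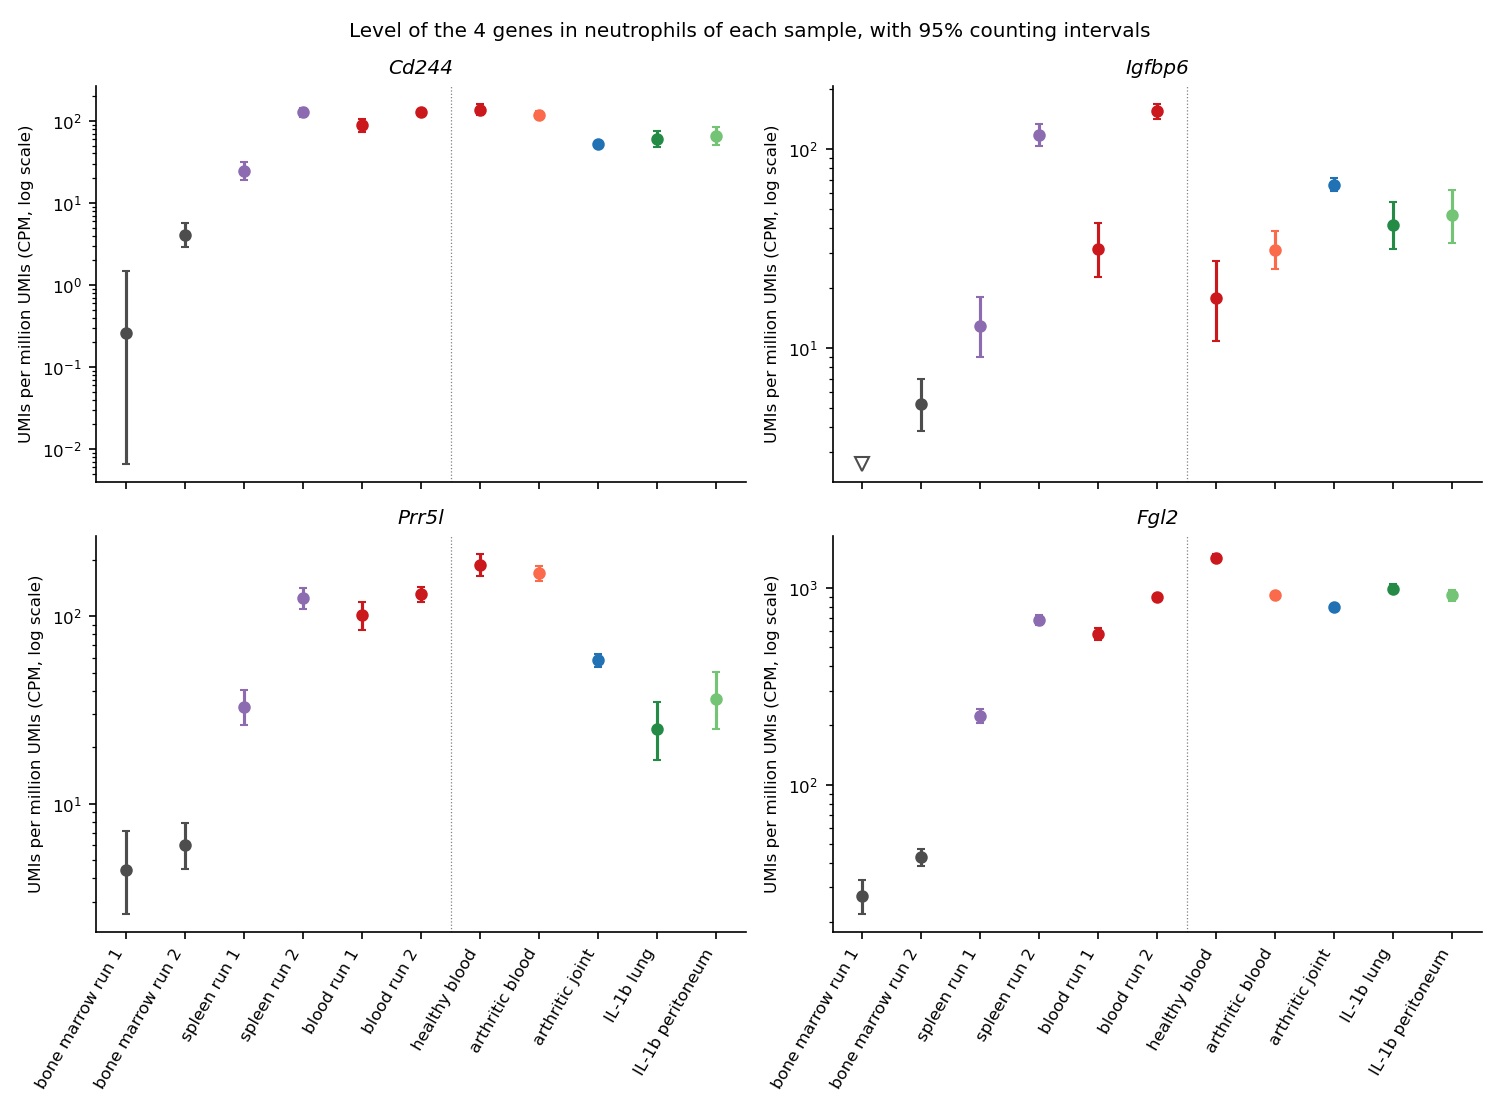
Level of each gene (CPM, log axis) in the neutrophils of all 11 samples, healthy libraries left of the dotted line and the 5 conditions of the inflammation library right of it. Points are samples, bars are exact 95% counting intervals, and the open triangle marks the highest level that the unlisted Igfbp6 can have had in bone marrow of run 1. Bone marrow lies lowest in every panel, and spleen of run 1 lies below blood in every panel.

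Free RNA in the droplets sets a floor to such low levels. In bone marrow of run 2, 242 cells with B cell markers and low S100 transcripts served as a reference that should lack these genes. Cd244 and Prr5l had 0 UMIs in them, which allows up to 8.53 CPM, and Igfbp6 stood at 4.62 CPM (0.56 to 16.7). Over all bone marrow neutrophils of run 2, the levels of 4.10, 6.03 and 5.24 CPM were not distinguishable from those values at this depth. Fgl2 at 42.7 CPM (38.5 to 47.2) lay above its level of 11.6 CPM (3.75 to 27.0) in the reference cells, and so was detected in marrow neutrophils.

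In spleen and blood of run 2 the transcripts lay above the level of reference cells. Fgl2 had a UMI in 45.05% of spleen neutrophils of run 2, which held a median of 774 UMIs, and in 3.40% of 1236 B-cell-like cells of the same library with a median of 1408 UMIs. The shares for Cd244 were 10.9% and 1.78%, those for Prr5l 11.3% and 0.89%, and those for Igfbp6 9.60% and 1.13%. In blood of run 2, the share with an Fgl2 UMI was 52.2% among neutrophils, 9.51% among 715 red-cell-like cells and 13.5% among 74 B-cell-like cells. In the red-cell-like cells, where red cell transcripts make up most of the total, the levels were 8.14 CPM for Cd244, 7.19 CPM for Prr5l and 5.27 CPM for Igfbp6. The B-cell-like cells had 15.5 CPM of Cd244 (1.87 to 55.9), 30.9 CPM of Prr5l (8.43 to 79.2), 7.73 CPM of Igfbp6 (0.196 to 43.1) and 116 CPM of Fgl2 (64.9 to 191), below the neutrophils of that library. Blood of run 1 had 33 red-cell-like cells, in which Cd244, Prr5l and Igfbp6 had 0 UMIs, which allows up to 32.2 CPM. Igfbp6 in the neutrophils there, at 31.4 CPM (22.7 to 42.5), was not distinguishable from that limit. No reference class reached 20 cells in spleen or bone marrow of run 1, and no such floor was set there.

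To ask whether the low level in marrow belongs to cells still making granules, neutrophils were divided by the share of their UMIs from 5 early granule genes (Camp, Ngp, Ltf, Chil3 and Lcn2), none of which is among the 4 genes. Cells with at least 5% of such transcripts made up 52.1% and 34.0% of bone marrow neutrophils, 40.3% and 2.87% of spleen, and 9.40% and 0.655% of blood. Within this class of the healthy libraries all 4 genes were low in each tissue. Fgl2 stood at 5.55 and 9.62 CPM in bone marrow, 16.2 and 30.5 CPM in spleen and 27.4 and 53.3 CPM in blood, and the blood values were near the 26.2 and 40.2 CPM of red-cell-like cells in those libraries. Cd244 had 0 UMIs in the 121 and 24 such cells of blood, which allows up to 12.6 and 39.3 CPM, and 2 UMIs in 453 cells of spleen run 1.

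The class with under 1% early granule transcripts differed by tissue. In these cells Cd244 was at 1.92 and 14.6 CPM in bone marrow, against 123 and 133 CPM in blood and 104 and 148 CPM in spleen. Prr5l was at 21.1 and 23.8 CPM in bone marrow, against 139 and 137 CPM in blood and 138 and 143 CPM in spleen. Fgl2 was at 144 and 141 CPM in bone marrow, against 800.3 and 941 CPM in blood and 915 and 791 CPM in spleen. Igfbp6 was at 15.1 CPM in bone marrow of run 2, where blood had 161 and spleen 137 CPM, while run 1 had 42.95 CPM in blood and 57.05 CPM in spleen. In bone marrow of run 2, Cd244 (9.60 to 21.2) and Prr5l (17.3 to 31.9) in this class lay above the 8.53 CPM limit of the B-cell-like reference cells. Igfbp6 (10.0 to 21.8) overlapped with its reference interval of 0.56 to 16.7 CPM. Since the genes were chosen as low in these bone marrow libraries, nothing is read from bone marrow standing below blood and spleen in this class.

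Among these cells the ratio of blood to bone marrow was 63.9 (11.2 to 2544) and 9.12 (6.185 to 14.0) for Cd244, 6.60 (3.57 to 13.5) and 5.76 (4.22 to 8.045) for Prr5l, 5.56 (4.38 to 7.15) and 6.65 (5.86 to 7.575) for Fgl2, and 10.7 (7.30 to 16.2) for Igfbp6 in run 2. Per cell the ratios were smaller, down to 2.67 for Fgl2 in run 1. With a limit of 0.5% in place of 1%, the ratio of Fgl2 was 3.97 and 4.735. The share of early granule transcripts that remained within this class was not equalised between tissues, and its part in these ratios was not tested.

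**Figure D2:**
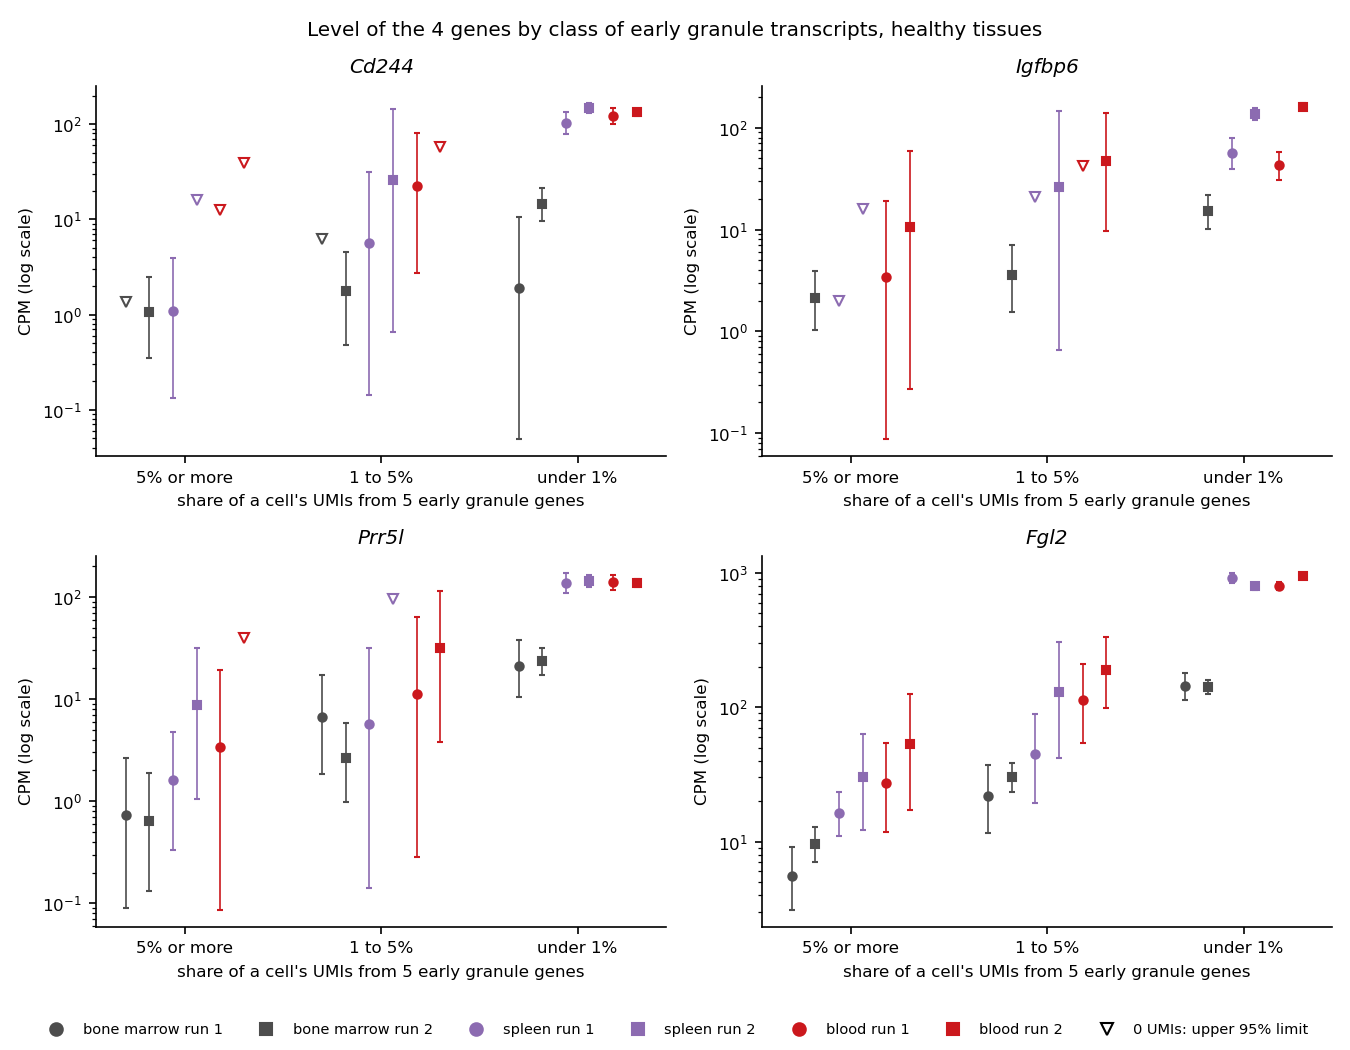
Level of each gene (CPM, log axis) in healthy neutrophils with at least 5%, 1 to 5% and under 1% of UMIs from 5 early granule genes. Circles are run 1 and squares run 2, coloured by tissue, with exact 95% counting intervals. Open triangles mark the upper limit where no UMI was seen, and Igfbp6 has no point for bone marrow run 1. In the class under 1%, blood and spleen lie together above bone marrow in each panel.

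Spleen and blood were compared as the contrast not used in the choice. In run 1 spleen was lower than blood for every gene, with ratios of 0.278 for Cd244, 0.325 for Prr5l, 0.380 for Fgl2 and 0.413 for Igfbp6. In run 2 the ratios were 1.01 (0.859 to 1.18) for Cd244, 0.948 (0.807 to 1.11) for Prr5l, 0.761 (0.713 to 0.811) for Fgl2 and 0.761 (0.649 to 0.891) for Igfbp6. The runs therefore differed in size, and for Cd244 also in the sign of the point estimate. Spleen of run 1 was also the spleen library with 40.3% of cells in the high granule class, where run 2 had 2.87%. Malat1, a nuclear RNA, made up 1.04% of UMIs in spleen and 3.17% in blood of run 1, and 3.70% and 3.46% in run 2. The part of granule class or Malat1 in these ratios was not tested.

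By edgeR's quasi-likelihood test over both runs, with the run as a block, the log2 fold change of spleen over blood was -0.75 for Cd244 (SE 0.38, FDR 0.402), -0.66 for Prr5l (SE 0.29, FDR 0.356) and -0.75 for Fgl2 (SE 0.24, FDR 0.276). Igfbp6 could be tested only in a fit in which a gene that a table does not list counts as 0, and gave -0.66 (SE 0.37, FDR 0.541). None passed an FDR of 0.05. Over all 6553 genes 14 were called, 0.214%. At an unadjusted p under 0.05 edgeR had 894 genes, Prr5l and Fgl2 among them, and DESeq2, which called 28 genes in all, called none of the 4 either (FDR 0.394 to 0.9999). The 95% intervals of the log2 fold change were -1.59 to 0.09 for Cd244, -1.29 to -0.02 for Prr5l, -1.28 to -0.22 for Fgl2 and -1.52 to 0.20 for Igfbp6, so a spleen level of about 0.6 of that in blood was neither shown nor shown to be absent.

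Within the class under 1% early granule transcripts, the same test gave -0.02 for Cd244 (SE 0.19), 0.02 for Prr5l (SE 0.17), -0.04 for Fgl2 (SE 0.19) and -0.10 for Igfbp6 (SE 0.23), with an FDR of 0.9993 for the first 3 and 0.9999 for Igfbp6. The intervals of the first 3 reached from -0.42 to 0.37. With spleen run 2 left out, Prr5l passed the threshold (log2 fold change -1.26, FDR 0.0458), and Fgl2 stood at -1.04 with an FDR of 0.0544. With blood run 1 left out, Cd244 moved to 0.00 (FDR 0.9997). Each of these fits holds 1 library of the tissue concerned, which is assumed to vary like those of the other tissues. With 2 pools per tissue the p-values measure the spread between pools, and in simulated libraries 14.5% of 2-fold changes were recovered in this contrast and 93% of 4-fold changes.

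**Figure D3:**
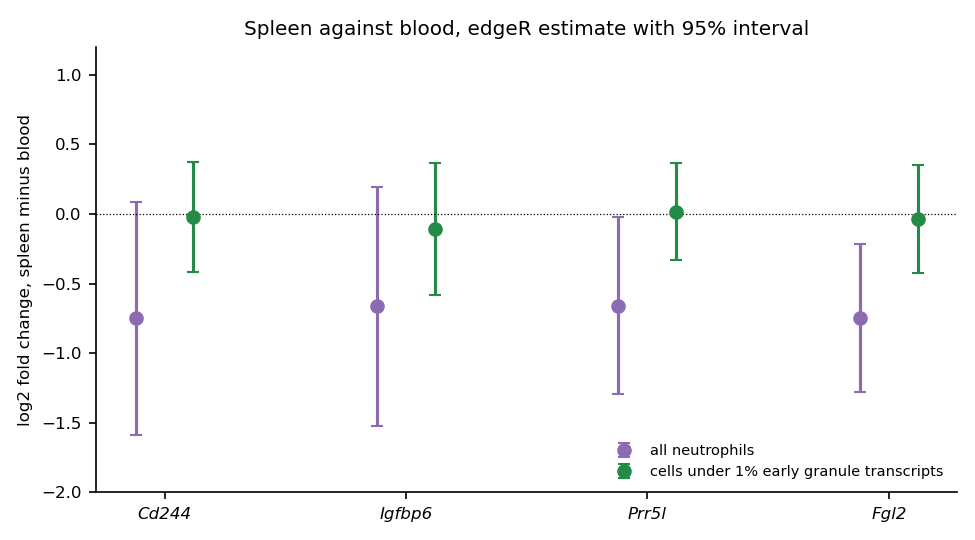
Log2 fold change of spleen over blood for each gene from edgeR with the run as a block, in all neutrophils (purple) and in cells with under 1% early granule transcripts (green). Points are estimates from 2 libraries per tissue and bars 95% intervals. Estimates near -0.7 in all neutrophils move to between -0.10 and 0.02 in the class low in granule transcripts.

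By CPM, Cd244 and Prr5l in neutrophils recruited into joint, lung and peritoneum were lower than in any healthy blood sample. So were 29.2% of 3899 genes with at least 20 CPM in healthy blood. Fgl2 lay within the range of the 3 healthy blood samples. Igfbp6 lay above healthy blood of its own library and within the range of all 3. Per 1000 cells Cd244 in joint, lung and peritoneum (187, 208 and 212 UMIs) lay below healthy blood of the library (303). Cd244 lay above blood of runs 1 and 2 (92.5 and 120), whose cells held fewer UMIs. Prr5l in joint (210) also lay above those runs (105 and 124). Among cells with under 1% early granule transcripts, Prr5l stood at 25.6 CPM (17.3 to 36.5) in lung and 30.45 CPM (17.0 to 50.2) in peritoneum. In healthy blood of the same library that class held 189 CPM (164.5 to 216.4). These are values of 1 pool per condition with no replicate check. All 5 conditions shared the droplets of 1 library that held almost no cells of other types, so the level that free RNA gives there was not measured, and the part of free RNA in low values such as the 33 Prr5l UMIs of lung was not tested. The yardstick also moved, since the median gene was at 0.757 of its healthy blood level in arthritic blood, 0.721 in joint, 0.509 in lung and 0.480 in peritoneum (log2 -0.40, -0.47, -0.97 and -1.06).

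Cd244 stood at 137 CPM in healthy blood of the inflammation library and 118 CPM in arthritic blood, and at 52.0 CPM in joint, 59.8 CPM in lung and 65.8 CPM in peritoneum. Ratios to healthy blood were 0.860 (0.707 to 1.05), 0.380 (0.317 to 0.457), 0.437 (0.329 to 0.577) and 0.480 (0.352 to 0.649). Relative to the median gene they were 1.14, 0.526, 0.858 and 1.00, so that Cd244 in lung and peritoneum lay near the median gene, and in joint it ranked at percentile 12.96 of 8148 genes. The 3 healthy blood samples spanned 89.1 to 137 CPM, a range of 1.54-fold, and all 3 tissue values lay below it.

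By CPM against healthy blood of the library, Prr5l had the lowest ratios of the 4 genes in joint, lung and peritoneum, though not in arthritic blood. It stood at 188 CPM in healthy blood, 169 CPM in arthritic blood, 58.2 CPM in joint, 25.0 CPM in lung and 36.1 CPM in peritoneum. Ratios were 0.903 (0.765 to 1.07), 0.310 (0.265 to 0.365), 0.133 (0.0893 to 0.193) and 0.192 (0.130 to 0.277), and relative to the median gene 1.19, 0.430, 0.262 and 0.401. Prr5l thus lay under the median gene in all 3 tissues, at percentiles 7.03, 7.29 and 13.9, and joint was 2.33-fold (1.64 to 3.42) above lung. The counting interval of arthritic over healthy blood included 1.

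Igfbp6 went the other way against healthy blood of the same library, from 17.8 CPM there (20 UMIs) to 31.2 CPM in arthritic blood, 66.35 CPM in joint, 41.6 CPM in lung and 46.7 CPM in peritoneum. Ratios were 1.75 (1.07 to 3.02), 3.73 (2.40 to 6.15), 2.34 (1.38 to 4.13) and 2.63 (1.52 to 4.70). The 3 healthy blood samples stood at 17.8, 31.4 and 155 CPM for this gene, and against the mean of blood of runs 1 and 2 the same conditions stood at 0.334, 0.711, 0.446 and 0.5003. The direction of Igfbp6 thus depends on which healthy blood is the comparator. By the study's methods the runs used other reagents (v2) than the inflammation library (v3), and whether the healthy mice differed is not settled here.

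Fgl2 had the ratios nearest to 1 in the 3 tissues, while in arthritic blood Cd244 and Prr5l were nearer. It stood at 1415 CPM in healthy blood, 921 CPM in arthritic blood, 803 CPM in joint, 990.1 CPM in lung and 916.5 CPM in peritoneum, with ratios of 0.651 (0.611 to 0.694), 0.567 (0.538 to 0.599), 0.700 (0.650 to 0.753) and 0.648 (0.595 to 0.704). Against the median gene the ratios were 0.860, 0.787, 1.37 and 1.35. Healthy blood of runs 1 and 2 had 585 and 903 CPM, and against their mean the ratios turned to 1.24, 1.08, 1.33 and 1.23. Scaling with TMM factors in place of total UMIs also turned the ratio above 1 in lung (1.37) and peritoneum (1.35), where it left Prr5l at 0.261 and 0.3996 and Cd244 at 0.856 and 0.998. A direction for Fgl2 in recruited cells was therefore not established.

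At a threshold of 2-fold, Cd244 and Prr5l were at or under 1/2 of healthy blood in joint, lung and peritoneum, and neither gene was in arthritic blood. For Cd244 this rested on the scaling and the comparator. It was above 1/2 in all 3 tissues per cell (0.619, 0.687 and 0.702) and with TMM factors (0.538, 0.856 and 0.998), in lung and peritoneum against the mean of blood of runs 1 and 2 (0.554 and 0.609), in joint and peritoneum under the S100 rule (0.501 and 0.551), and in lung with cells thinned to 1000 UMIs (0.535). Prr5l was above 1/2 only in joint, per cell (0.506) and against the mean of runs 1 and 2 (0.501), among the alternatives run. The share of all genes at or under 1/2 was 25.9% in joint, 49.3% in lung, 51.8% in peritoneum and 11.3% in arthritic blood. Igfbp6 alone reached 2-fold above healthy blood, in the same 3 tissues, where 11.8%, 10.9% and 10.2% of genes did, and it did not in arthritic blood, where 1.21% of genes did. Igfbp6 was under 2-fold in peritoneum without cells holding other cell types' markers (1.79) or the narrower set of them (1.74), in lung with cells thinned to 1000 UMIs (1.98), and in all 3 tissues against the mean of blood of runs 1 and 2. In arthritic blood it was above 2-fold per cell (2.63) and with TMM factors (2.39). Of 3899 genes with at least 20 CPM in healthy blood, 29.2% lay in all 3 tissues below all 3 healthy blood samples, as Cd244 and Prr5l did, and 9.0% above them. In lung and peritoneum the background was about as large as the group that Cd244 fell into.

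**Figure D4:**
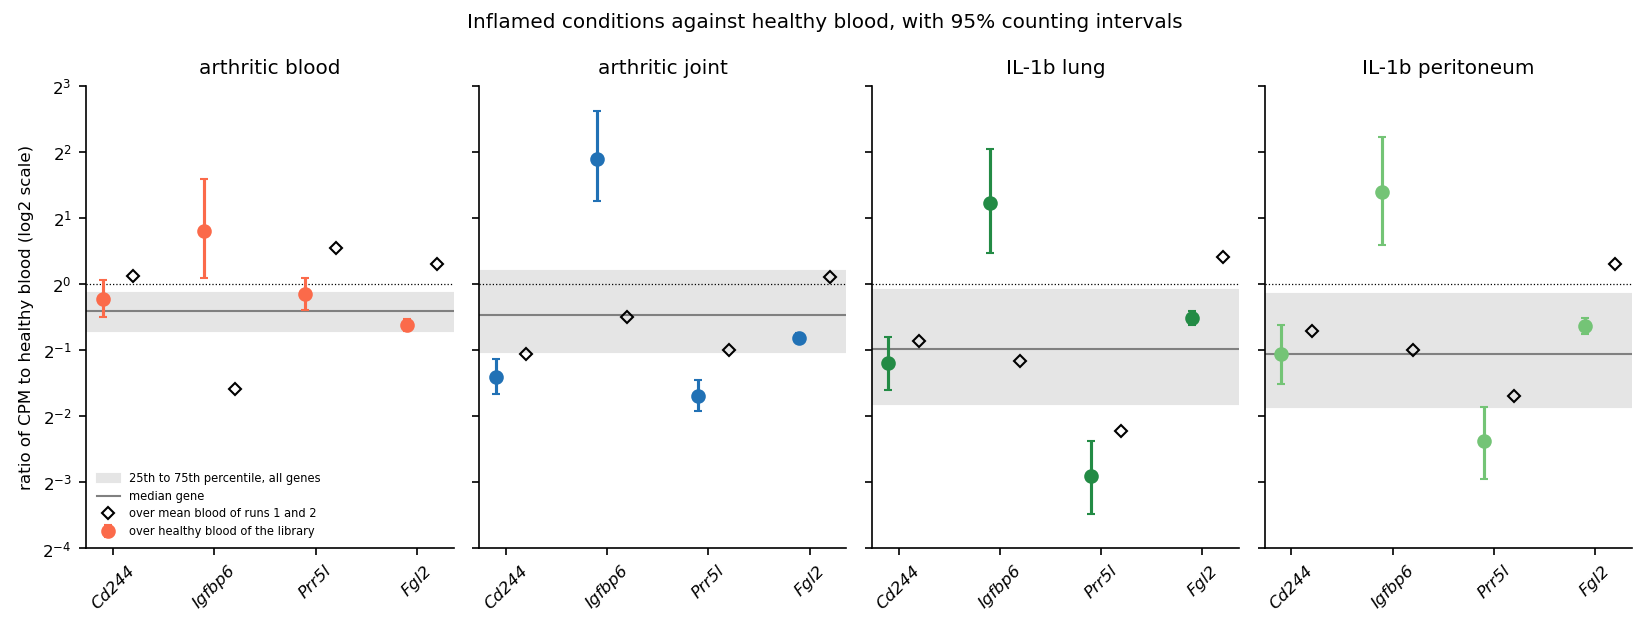
Ratio of each gene's CPM to healthy blood (log2 axis) in the 4 inflamed conditions, with exact 95% counting intervals on the filled points. Open diamonds give the ratio to the mean of healthy blood of runs 1 and 2, the grey line the median gene and the grey band the middle 50% of genes. Prr5l lies below the band in joint, lung and peritoneum, and between the comparators Igfbp6 and Fgl2 change sides of 1 in all 4 conditions, Cd244 and Prr5l in arthritic blood.

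Joint lavage allowed a finer view, since the authors' assignment to ImmGen reference populations placed 2260 joint cells with neutrophils of arthritic synovial fluid (GN.Arth.SynF), 255 with blood (GN.Bl), 245 with thioglycollate peritonitis (GN.Thio.PC) and 96 with urate crystal peritonitis (GN.UrAc.PC). These names come from the same cells' transcripts, so differences between them are descriptions. Cd244 stood at 69.5 CPM (53.5 to 88.8) in GN.Bl cells, at 52.5 CPM (47.7 to 57.6) in GN.Arth.SynF cells, which overlaps, and at 28.8 CPM in GN.Thio.PC and GN.UrAc.PC cells. Prr5l was lowest in GN.Arth.SynF at 47.9 CPM and stood at 98.8, 99.2 and 160 CPM in GN.Bl, GN.Thio.PC and GN.UrAc.PC cells. Fgl2 was at 666 CPM (614 to 720.5) in GN.Bl, 765 CPM (746.5 to 783.8) in GN.Arth.SynF and 1259 and 1493 CPM in GN.Thio.PC and GN.UrAc.PC cells. Igfbp6 ranged from 24.0 CPM (15 UMIs) in GN.Thio.PC to 136 CPM in GN.UrAc.PC cells. GN.Arth.SynF cells of lung held 52.0 CPM of Cd244 and 22.9 CPM of Prr5l, so among cells of that name Cd244 was similar in joint and lung, and Prr5l was lower in lung.

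**Figure D5:**
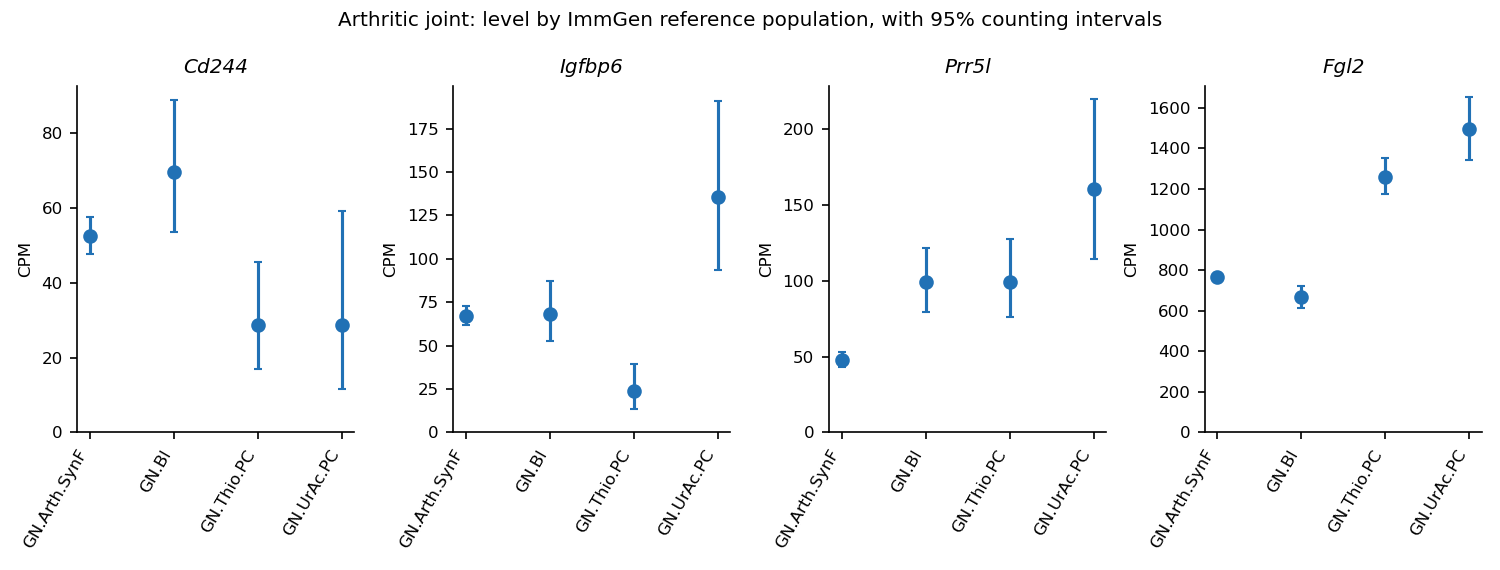
Level of each gene (CPM, linear axis from 0) in arthritic joint neutrophils by the ImmGen population to which the authors assigned them, with exact 95% counting intervals. Prr5l and Fgl2 are higher in GN.UrAc.PC than in GN.Arth.SynF cells, and the Cd244 intervals of GN.Bl and GN.Arth.SynF cells overlap.

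Inflamed and healthy cells were defined in different ways, and a share of the inflammation library fell short of the 3% limit for S100a8 and S100a9, namely 19.8% of cells in healthy blood, 7.62% in arthritic blood, 8.30% in joint, 23.4% in lung and 20.2% in peritoneum. In blood these cells were small, with a median of 609 UMIs in healthy and 595.5 in arthritic mice, and 8.11% and 9.58% of their UMIs came from the nuclear RNA Malat1. They held 471 and 421 CPM of Cd244 against 108 and 113 CPM in the other cells, and 460 and 532 CPM of Prr5l against 164 and 163 CPM. Lung and peritoneal cells under the limit were small too (medians of 695 and 717 UMIs) and held 164.6 and 130.8 CPM of Cd244 against 50.9 and 59.4 CPM. Joint cells under the limit were larger (median 2584 UMIs) and held 11.2 CPM of Cd244 against 54.2 CPM. With the S100 rule applied to both, the ratio of Cd244 in joint to healthy blood was 0.501, up from 0.380. In the healthy libraries, cells with 2 to 3% and with 3 to 5% of S100 transcripts had Fgl2 at 880.1 and 1041 CPM in blood of run 2 and at 725 and 785 CPM in spleen of run 2. In run 1 the order was the other way, at 1519.7 and 1118 CPM in blood (28 and 56 UMIs) and 1633.5 and 1189 CPM in spleen (23 and 40 UMIs).

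The share of cells in which at least 1 of the genes was seen was lowest in bone marrow. With each cell thinned to 500 UMIs, it was 2.58% and 3.58% in bone marrow (3 of the genes being listed in run 1), 23.8% and 42.5% in spleen, and 35.45% and 47.2% in blood. In the inflammation library it was 54.4% in healthy blood, 45.1% in arthritic blood, 37.0% in joint, 34.2% in lung and 40.8% in peritoneum. Lung thus had the lowest share of the inflammation library although its Fgl2 level was the highest of the 3 tissues. Fgl2 alone was seen in 44.6%, 35.1%, 31.1%, 31.3% and 36.0% of those cells. No cell of any sample held all 4 genes at this depth, and 3 of the genes were seen together in at most 6 of 509 cells as a share, in healthy blood of the inflammation library, and at most 19 of 3666 as a count, in blood run 2.

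Fgl2 counts varied more between cells in arthritic blood and the recruited cells than in healthy blood. At 1000 UMIs per cell, the variance of Fgl2 counts between cells was 1.10 times the mean in healthy blood, 1.56 in arthritic blood, 1.68 in joint, 2.015 in lung and 1.64 in peritoneum. The highest count in a single cell was 14 UMIs in healthy blood, 36 in joint and 26 in lung, where joint holds 2857 cells and healthy blood 509. Prr5l had a ratio of 0.979 in lung and 1.17 in healthy blood. Cells under 1000 UMIs were left out of these ratios, which kept 354 of 509 cells in healthy blood, 674 of 814 in arthritic blood, 2734 of 2857 in joint, 286 of 380 in lung and 231 of 292 in peritoneum. The ratios are descriptions of 1 pool each, and the part of the cells left out was not tested.

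The levels fell into these orders over the 11 samples. Cd244 was highest in healthy blood of the inflammation library, spleen run 2, blood run 2 and arthritic blood, whose counting intervals overlapped, followed by blood run 1, which overlapped with arthritic blood and also with peritoneum and lung, then peritoneum, lung and joint, which overlapped with each other, then spleen run 1 and bone marrow. Prr5l was highest in healthy and arthritic blood, then in blood run 2, spleen run 2 and blood run 1, then joint, then peritoneum, spleen run 1 and lung, which overlapped, then bone marrow. Igfbp6 ran from blood run 2 and spleen run 2, which did not overlap, through joint, peritoneum, lung, blood run 1, arthritic blood and healthy blood, of which neighbours overlapped, to spleen run 1, which overlapped with healthy blood, and last bone marrow. Fgl2 was highest in healthy blood, then in lung, arthritic blood, peritoneum and blood run 2, of which neighbours overlapped, then in joint, spleen run 2, blood run 1, spleen run 1 and bone marrow, each apart from the next.

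Partners of the 4 genes were looked at in lists that leave the genes themselves out. Of the SLAM family and its adaptors, 5 of 15 genes could be tested. By edgeR 2 were called higher in blood than in bone marrow, where 15.0% of all genes were, and DESeq2 called 1. Cd84, a SLAM receptor, was 2.05-fold higher (log2 1.04, SE 0.27, FDR 0.0175), with 93.8 and 107 CPM in bone marrow and 275 and 251 CPM in blood. Ptpn6, which encodes the phosphatase SHP-1, was 1.57-fold higher (FDR 0.0447). In lung and peritoneum Cd84 was at 0.2745 (0.230 to 0.326) and 0.239 (0.193 to 0.294) of healthy blood, while the ligand gene Cd48 stood at 0.889 CPM (1 UMI) in healthy blood and 2.53 CPM (26 UMIs) in joint, a ratio of 2.84 whose interval of 0.467 to 116.5 includes 1.

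Of the IGF axis, 4 of 16 genes could be tested and 1 was called, beside 15.0% of all genes called higher and 14.6% lower. Igf1r, the receptor for IGF-I, was 2.05-fold higher in blood than in bone marrow (log2 1.04, SE 0.21, FDR 0.00564), and stood at 0.472 and 0.357 of healthy blood in lung and peritoneum. Igf2r, which clears IGF-II, was 3.93-fold (2.70 to 5.94) above healthy blood in joint. Insr, the insulin receptor gene, was at 0.379, 0.1825 and 0.0682 of healthy blood in joint, lung and peritoneum, the last from 4 UMIs.

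Of mTOR complex 2 and its substrates, 10 of 16 genes could be tested, with 3 called higher and 1 lower in blood than in bone marrow, beside 15.0% and 14.6% of all genes. Mlst8, a subunit of both mTOR complexes, was 6.83-fold lower (log2 -2.77, SE 0.49, FDR 0.00289), going from 28.0 and 16.6 CPM in bone marrow to 8.98 and 1.73 CPM in blood, and it had 0 UMIs in all 5 conditions of the inflammation library. Zfp36, which encodes the mRNA decay factor tristetraprolin, was 3.08-fold higher (FDR 0.00186), Sgk1 2.345-fold (FDR 0.00439) and Akt1 1.87-fold (FDR 0.0262). Sgk1 was also the only gene of the 4 lists called in spleen over bone marrow (2.09-fold, FDR 0.0323), 1 of 23 tested beside 4.07% of all genes called higher and 0.595% lower. Like Prr5l, Sgk1 was lower in recruited cells, at 0.300 of healthy blood in joint, 0.292 in lung and 0.111 in peritoneum. Akt1 stood at 0.320 and 0.281 in lung and peritoneum. Zfp36 went the other way, at 1.28, 1.58 and 2.305 of healthy blood in joint, lung and peritoneum. The list's median log2 ratio was -0.77 in joint, -1.40 in lung and -0.81 in peritoneum, beside -0.47, -0.97 and -1.06 over all genes.

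Of the fibrinogen-like and coagulation list, 4 of 20 genes could be tested and none was called in the healthy contrasts by edgeR or DESeq2, with 3 at an unadjusted p under 0.05 by edgeR in blood over bone marrow and 0 in the others. In the inflammation library several members passed the minimum of 20 UMIs only through the tissue where they were high, so no count is given and the values stand as descriptions. Plaur, the urokinase receptor gene, stood at 195.6 CPM in healthy blood, 446 CPM in joint and 2602 CPM in lung (13.3-fold, 11.6 to 15.3). Fcgr2b, which encodes the receptor bound by FGL2, went from 14.2 CPM in healthy blood to 516 CPM in lung (36.2-fold, 22.15 to 63.8) and 259.9 CPM in peritoneum (18.3-fold, 11.0 to 32.5). F10, the gene of coagulation factor X, stood at 4.44 CPM in healthy blood and 113 CPM in joint (25.4-fold, 10.8 to 78.2). F3, the tissue factor gene, had 1 UMI in healthy blood and 72 in lung (61.3-fold, 10.7 to 2455). Thbd, which encodes thrombomodulin, stood at 30.2 CPM in healthy blood and at 3.03 and 3.18 CPM (4 and 3 UMIs) in lung and peritoneum. In spleen against blood, 0 of 23 tested genes of the 4 lists were called by edgeR or DESeq2 at an FDR of 0.05, and 2 had an unadjusted p under 0.05 by edgeR, beside 0.214% of all genes called.

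The genes most like each of the 4 were found by Pearson correlation over 8 differences in log2(CPM + 5) from healthy blood of the same run or library, among 3898 genes. These points share their blood samples and the wide gap to bone marrow, so the values are descriptions. Cd244 was most like H2-Q10 (r = 0.992), Tnfsf14 (0.989) and Rps27rt (0.9865). Prr5l was most like Gm17619 (0.976), Hist1h2bc (0.9752) and St8sia4 (0.972). Fgl2 was most like Rps27rt (0.993), Metrnl (0.9705) and Gcnt2 (0.970). Igfbp6, over 7 differences without bone marrow run 1, was most like Ifitm1 (0.986), Gbp2 (0.984) and Ifitm2 (0.973). Among the 4 genes, r was 0.965 between Cd244 and Fgl2, 0.872 between Cd244 and Prr5l, 0.753 between Prr5l and Fgl2, 0.903 between Igfbp6 and Fgl2, 0.7615 between Igfbp6 and Cd244, and 0.423 between Igfbp6 and Prr5l. H2-Q10, Rps27rt and Hist1h2bc have near-identical copies with which counting could divide their reads.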

How the data were processed

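The authors deposited UMI counts per gene and cell, made with Cell Ranger on mm10 by the labels, and a table that gives each cell of the inflammation library its condition and ImmGen population. By the study's methods healthy libraries used other reagents (v2) than the inflammation library (v3), while the labels list V1, V2 and V3 kits for every sample alike, so the kit of each run is not settled here. Hashtag doublets had been removed from the inflammation library before deposit, and its populations came from a classifier run on the same counts. For healthy cells no doublet caller was run here, and no sample was corrected for free RNA. The count tables of run 1 list only genes with at least 11 UMIs, so Igfbp6 in bone marrow run 1 is unlisted and not 0.

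The deposited counts were summed over neutrophils of a sample, chosen as the report states, and expressed as CPM. Healthy libraries were tested with edgeR 4.0.16 (quasi-likelihood test, TMM factors, filterByExpr, Benjamini-Hochberg adjustment over all genes tested, FDR 0.05) with tissue and run as terms, on 6553 of the 6691 genes listed in all 6 tables. Igfbp6 came from a fit over the union of genes. DESeq2 1.42.0 was the other tool, under R 4.3.3. Levels and ratios carry exact 95% intervals (Python 3.11.15, scipy 1.17.1). UMIs are counted molecules, but the intervals cover counting error only and no spread between mice. Inflamed conditions are 1 pool each and were not tested. Genes with at least 20 UMIs over both conditions formed their background.

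The run was used as a block because its tissues came from the same mice, by the study's methods. Deviations from the tissue mean correlated between tissues of a run (r = 0.691, 0.6885 and 0.698 over 6553 genes). The biological coefficient of variation was 0.196. Fits were tested on simulated counts with 200 changed genes. Columns of samples outside the series numbered 0.

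The 4 genes and the lists of related genes were chosen with earlier results of these data known. Named beside the 4 genes were, of each related list, at most the 4 called genes with the largest change per contrast, and for each of the 4 the 3 genes with the highest r among those at a mean of at least 20 CPM in healthy blood. Malat1 and the antisense genes fall outside this rule and were chosen after their values were seen. B-cell-like and T-cell-like cells had under 3% S100 transcripts, no Nkg7, and at least 2 UMIs of their own markers with 0 of the other type's and of the monocyte list. Red-cell-like cells had over 50% of UMIs from red cell markers, and monocyte-like cells at least 1 UMI of Csf1r and 3 of the monocyte list. Nkg7-positive cells had at least 1 UMI of Nkg7 and no S100 limit. Alternatives changed the scaling, the filter, the tool, the block, the cell definition, the comparator and the libraries included, and 2 of them (a narrower set of other cells' markers, and the class low in granule transcripts in the spleen test) were added after seeing the data, as were per-cell ratios in that class.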

Additional observations from a re-analysis of the deposited data

Results flagged for a closer look

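Cells outside the neutrophil definition held some of these transcripts at levels above the B-cell-like or red-cell-like cells of the same library, which served as controls. Cd244 was at 177.5 CPM (127.9 to 240.0) in 77 monocyte-like cells of blood run 1, at 242.2 CPM (143.5 to 382.8) in 22 of blood run 2, at 210.9 CPM (125.0 to 333.3) in 28 of spleen run 2 and at 109.8 CPM (50.2 to 208.4) in 23 of bone marrow run 2. The highest control level was 0, 15.5, 10.9 and 0 CPM in those libraries. In bone marrow run 2 monocyte-like cells thus lay above the neutrophils, which held 4.10 CPM. Cd244 was also at 140.2 CPM in 52 Nkg7-positive cells of blood run 1 and at 31.69 CPM in 331 of spleen run 2, where B-cell-like cells held 10.9 CPM.

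Fgl2 was at 350.5 CPM (244.1 to 487.4) in the Nkg7-positive cells of blood run 1 and at 105.4 CPM (48.2 to 200.2) in the monocyte-like cells of spleen run 2, against 26.2 and 28.2 CPM in the highest controls. Neutrophils of those libraries held more Fgl2, 585 and 687 CPM. The Nkg7-positive class had no S100 limit, and 19 of its 52 cells in blood run 1 had at least 3% S100 transcripts, as neutrophils do. Each class holds few cells from 1 library, and doublets with neutrophils were not removed from it. Their part in these values was not tested.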

How the results depend on the processing

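Of the log2 fold changes of spleen over blood for the 4 genes, 59 of 63 values under alternatives kept their sign and stayed above the FDR threshold, which shows no stability at this power, since some of them came close to 0. Without cells holding other cell types' markers Cd244 went to -0.03, Fgl2 to -0.08 and Igfbp6 to -0.22. Cd244 turned to 0.00077 without blood replicate 1, and Prr5l to 0.0754 without cells holding other cell types' markers and to 0.0154 among cells under 1% early granule transcripts. Leaving out 1 library gave -1.64 to 0.00077 for Cd244, -1.07 to -0.40 for Igfbp6, -1.26 to -0.19 for Prr5l and -1.04 to -0.50 for Fgl2, with Prr5l at -1.26 passing the threshold without spleen replicate 2, in a fit that holds 1 spleen library. With no replicate block, the pairing of tissues within a run was dropped and the values were -0.50 for Cd244, -0.57 for Igfbp6, -0.54 for Prr5l and -0.68 for Fgl2, with no call for any of them in either fit. Genes called without the block numbered 1 for spleen over blood, 168 for blood over bone marrow and 0 for spleen over bone marrow (612 at an unadjusted p under 0.05, and 277 called by DESeq2 with the block), against 14, 1939 and 306 with it.

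Spleen over blood gave 9 calls with RLE size factors, 28 with DESeq2, 5 over the union of genes, 2 after the filter on mitochondrial UMIs and genes, 2 without cells holding NK, T, B or 5 macrophage markers, and 30 with an S100 limit of 10%, and 1 (without blood replicate 2) to 250 (without spleen replicate 2) with 1 library left out. The simulated 2-fold changes were mostly missed in this contrast. Blood over bone marrow gave 1244 with DESeq2, 847 without cells holding other markers and 475 to 2906 with 1 library left out. Spleen over bone marrow gave 176 over the union, 692 without cells holding other markers and 38 to 1671 with 1 library left out.

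The ratio of blood to bone marrow, whose direction the choice of genes fixes, was per cell 11.3 for Cd244 and 10.8 for Igfbp6 in run 2, 7.18 and 7.94 for Prr5l and 6.87 and 7.72 for Fgl2. Without cells holding other markers it was 32.15 and 11.9 for Cd244, 11.3 for Igfbp6, 8.84 and 7.07 for Prr5l, and 6.925 and 8.01 for Fgl2. TMM scaling gave 16.67 and 16.7 for Fgl2. Among cells low in granule transcripts, Fgl2 gave 3.97 and 4.735 at a limit of 0.5% and 8.60 in run 2 at 2%, and per cell 2.67 and 3.95. Per cell the others gave 5.41 for Cd244 and 6.33 for Igfbp6 in run 2, and 3.165 and 3.42 for Prr5l.

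Ratios to healthy blood are given for arthritic blood, joint, lung and peritoneum in that order. Counted per cell, Cd244 was at 1.29, 0.619, 0.687 and 0.702, Prr5l at 1.35, 0.506, 0.2095 and 0.281, and Fgl2 at 0.9745, 0.925, 1.10 and 0.946. With TMM factors Cd244 was at 1.17, 0.538, 0.856 and 0.998, Prr5l at 1.23, 0.4396, 0.261 and 0.3996, and Fgl2 at 0.885, 0.804, 1.37 and 1.35, while Igfbp6 was at 4.59 in lung and 5.46 in peritoneum. Against the mean of blood of runs 1 and 2, Igfbp6 fell below 1 (0.334, 0.711, 0.446 and 0.5003), Fgl2 rose above it (1.24, 1.08, 1.33 and 1.23), Prr5l was at 1.46, 0.501, 0.215 and 0.3105, and Cd244 at 1.09, 0.481, 0.554 and 0.609. Cells thinned to 1000 UMIs gave Cd244 1.065 in arthritic blood, 0.476 in joint and 0.290 in peritoneum, Prr5l 1.201, 0.398 and 0.301 there, and Fgl2 0.801 in lung. The S100 rule gave Cd244 0.501 in joint and 0.551 in peritoneum. Without cells holding other markers, joint was at 0.306 for Cd244 and 0.243 for Prr5l, and Fgl2 at 0.831 in lung and 0.7497 in peritoneum. With the narrower marker set Cd244 was at 0.296 in joint and 0.3175 in lung, and Prr5l at 0.256 in joint. The cause of these shifts was not tested. Of the values for these ratios under alternatives, 73 stayed within the counting interval of the main value, some of those printed above among them. Igfbp6 rests on 20 UMIs in healthy blood, and Cd244 on 1 UMI in bone marrow run 1, and 1 pool per inflamed condition gives no spread between mice.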

Other observations

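Monocyte-like cells separated the 4 genes. While Cd244 was at or above the neutrophil level in each library that had such cells, Igfbp6 had 0 UMIs in those of bone marrow run 2 and spleen run 2, which allows up to 45 and 43.2 CPM, and 2 UMIs each in those of blood. Prr5l was at 54.95 CPM (29.3 to 94.0) in monocyte-like cells of blood run 1, below the 101 CPM of neutrophils there, and at 94.2 CPM (37.9 to 194) in blood run 2, where neutrophils held 131 CPM. Fgl2 was at 109.9 and 188.4 CPM in monocyte-like cells of blood, against 585 and 903 CPM in neutrophils.

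In peritoneal lavage, 37.3% of neutrophils held 1 to 5% of early granule transcripts, more than in the other inflamed conditions, of which lung had 8.95%. Those cells held 47.7 CPM of Cd244 and 647 CPM of Fgl2, against 83.2 and 1151 CPM in peritoneal cells under 1%. Prr5l stood at 43.1 CPM (25.95 to 67.3) in the former and 30.45 CPM (17.0 to 50.2) in the latter, and Igfbp6 at 36.3 and 56.8 CPM. A further 4 peritoneal cells held at least 5% of early granule transcripts, with Fgl2 at 1287.8 CPM (12 UMIs) and 0 UMIs of the other genes.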
